A study of Mus musculus with 12 samples.

Results

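Postnatal maturation of hearts that carry a DYRK1B transgene was followed by setting 3 heart libraries of 8-week-old transgenic mice (Tg P56) against 3 of 3-day-old transgenic mice (Tg P3), across all genes of the read count files. These are 6 of the 12 libraries of the series. The other 6, from wild-type littermates (WT) of the same 2 ages, were used to say which of the usual changes between these ages took place in transgenic hearts too. Of 18444 genes in the files, 14212 passed the filter on low counts and were tested. All mice were C57BL/6. The transgene is the full-length mouse Dyrk1b cDNA, which encodes a protein kinase, under the cardiac alpha myosin heavy chain promoter, so it is driven in heart muscle cells and not in the other cells of the heart. RNA came from heart tissue frozen in liquid nitrogen. The labels do not say whether a library is 1 heart or a pool, so the p-values measure the spread between libraries of a group, which may in part be technical.

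In the days and weeks after birth the mouse heart leaves the growth programme of the fetus. Its muscle cells stop dividing and grow in size, exchange fetal for adult isoforms of contractile proteins and metabolic enzymes, build out the stores and membranes that handle calcium, and turn from glucose and lactate to fatty acids as their main fuel. Imprinted growth genes fall silent, the collagen-rich matrix of the neonate is remodelled, and resident immune cells mature. Several fetal genes, such as those for the natriuretic peptides, Acta1 and Myh7, are known to come back when an adult heart is under load.

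Levels are given as CPM, counts scaled to library size and not corrected for gene length, in the order of replicates 1, 2 and 3. Changes are log2 fold changes of P56 over P3 with their standard error (SE), tested with edgeR's quasi-likelihood test and Benjamini-Hochberg adjustment over the 14212 genes. A gene is said to have risen or fallen where the adjusted p was under 0.05. The difference of the changes is the Tg change minus the WT change, tested in the same fit as an interaction. The Tg and the WT change share no library.

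Library totals ran from 16854195 to 17095351 counts in Tg P3 and from 12760002 to 13231968 in Tg P56 (WT: 15742474 to 16756522 and 11174527 to 12099794). Age parted the libraries along the leading principal component (78.1% of the variance). Along the next (8.62%), Tg P56 replicate 1 lay at 45.6 and the other Tg P56 libraries at 23.9 and 31.9. The WT P56 libraries lay at -35.25 to -33.73, and the P3 libraries of both genotypes at -5.77 to 4.11. This component thus parted the genotypes at P56 and not at P3. One P3 library of each genotype was low in Y-linked transcripts (2.44 CPM in Tg P3 replicate 3 and 2.70 CPM in WT P3 replicate 2, against 112 to 186 CPM in the other libraries). Cardiomyocyte markers summed to 64260.000000 to 70650.000000 CPM at P3 and 101000.000000 to 110100.000000 CPM at P56 in Tg, and B cell, thymus and lung markers were at or near 0. Dyrk1b, which checks the label, was at 93.1, 77.6 and 83.4 CPM at P3 and 596, 929 and 871 CPM at P56 in the Tg libraries, a change of 3.24 (SE 0.15, adjusted p = 2.12e-09). In WT it was at 78.1, 76.2 and 71.6 CPM at P3 and 95.04, 105 and 90.6 CPM at P56. Tg P56 stood clear of every other library, whereas the libraries labelled Tg P3 overlapped those of WT P3. The Dyrk1b level therefore does not show the transgene at P3, and a difference between Tg and WT changes is one between libraries grouped by their labels.

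Between P3 and P56, 5076 genes rose in Tg hearts and 4954 fell, which is 35.7% and 34.9% of the genes tested (together 70.6%). At least 2-fold changes were called for 2229 higher (15.7%) and 2085 lower genes (14.7%). The 3 libraries of one age lay wholly above those of the other for 5306 genes upwards and 5307 downwards (37.3% each). In WT 4799 genes rose (33.8%) and 4994 fell (35.1%). Of these 9793 genes, 8067 (82.4%) moved in the same direction and were called in Tg too, 1546 were not called in Tg, and 180 were called in the opposite direction. Genes that fell in WT made up 134 of the opposite 180. Across the 14212 genes, the Tg and WT changes had a Pearson r of 0.86, given as a description since genes are not independent. The libraries are of heart tissue with mixed cell types, so fewer cells of a type and less RNA per cell cannot be told apart.

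The difference of the changes was called for 2109 genes, with 1196 more positive in Tg (8.42%) and 913 more negative (6.42%). The 913 became 589 without Tg P3 replicate 1, and 586 without both libraries low in Y-linked transcripts. Of the 9793 WT changes, 1065 (10.9%) were smaller in Tg by this test, of which 514 were still called in the same direction, and 558 (5.70%) were larger. Another 1783 genes that were not called in WT were called in Tg, and for 484 of these the difference itself was called.

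**Figure D1:**
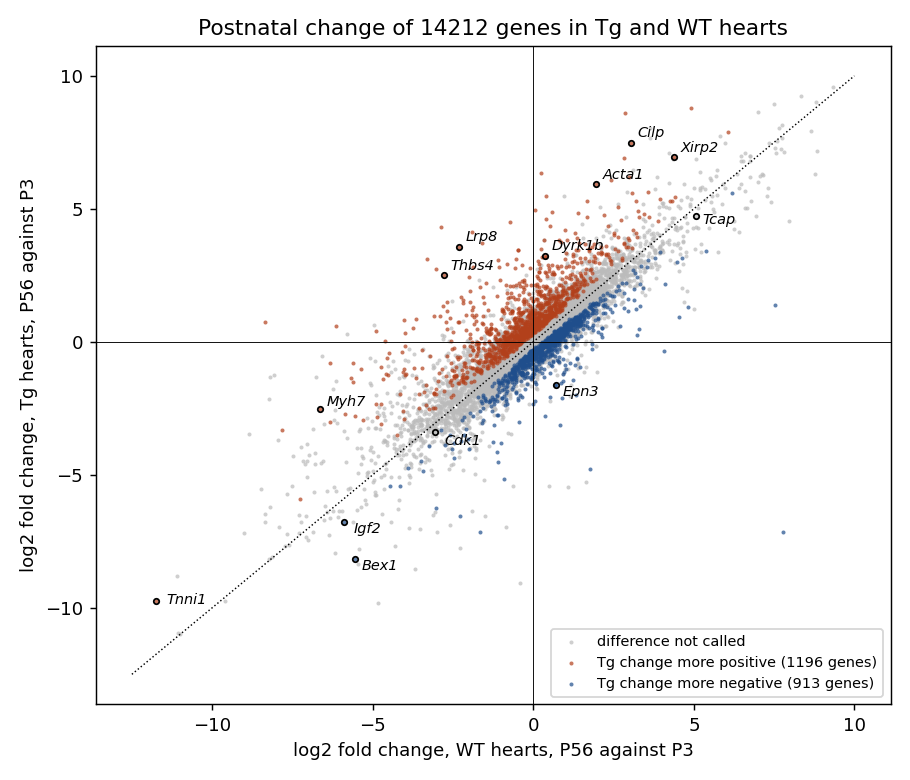
Each point is 1 of 14212 genes, with its log2 change from P3 to P56 in WT on the x axis and in Tg on the y axis. Coloured points are genes called for the difference of the changes (1196 above and 913 below), and most of the cloud lies along the line of equal change.

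**Figure D2:**
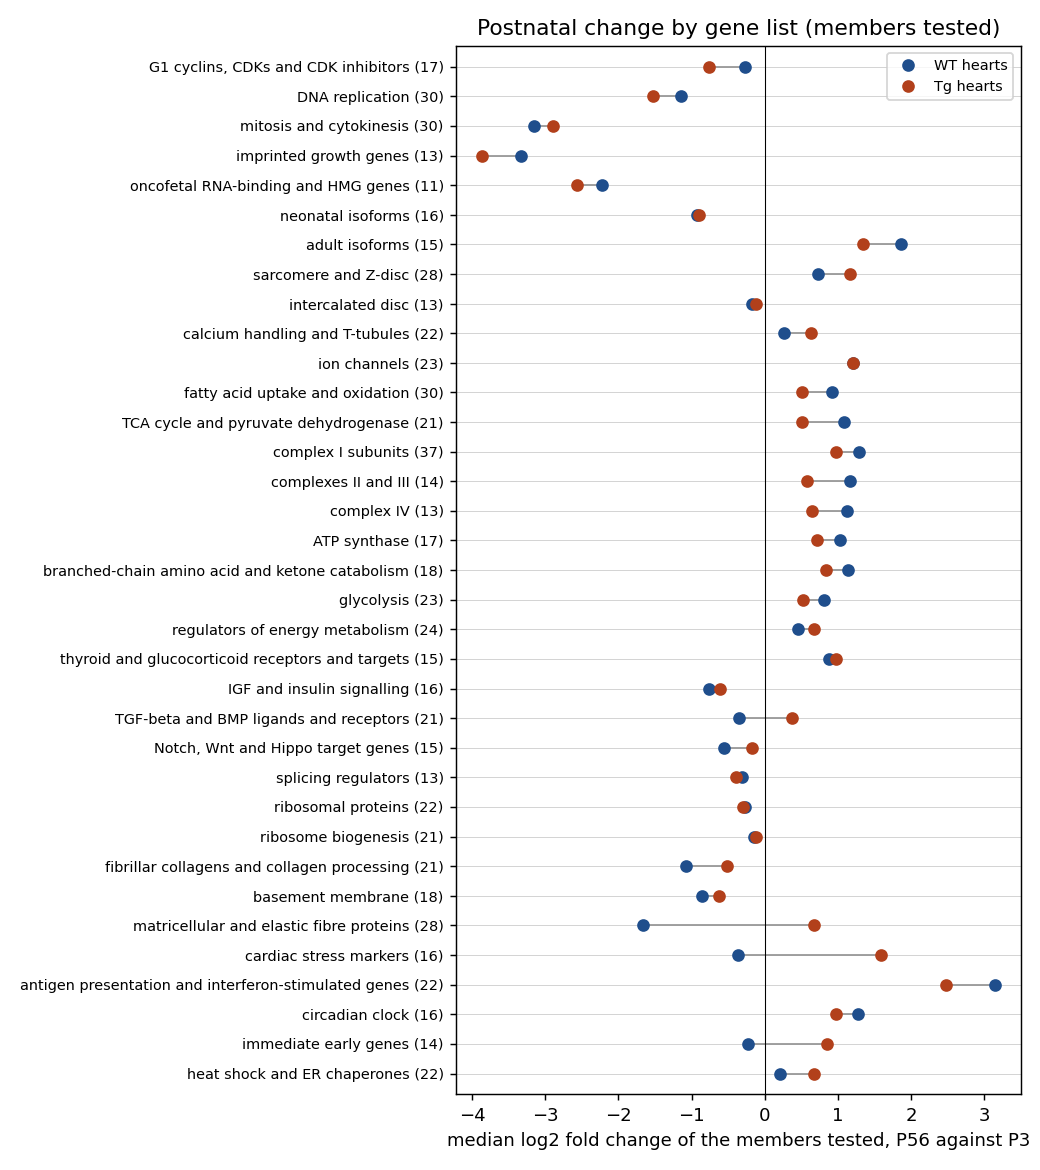
Median log2 change from P3 to P56 over the tested members of each gene list, in Tg and in WT. Mitosis and imprinted genes lie far to the left in both genotypes, respiratory and citric acid cycle lists lie to the right with Tg nearer to 0 than WT, and the matricellular, stress, TGF-beta and immediate early lists lie on opposite sides of 0 in the 2 genotypes.

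Cell cycle genes fell in Tg hearts as they did in WT. Of 30 mitosis and cytokinesis genes tested, 29 fell, with a median of -2.89 (WT -3.15) against -0.0032 over all genes. Cdk1, the kinase that starts mitosis, was at 21.7, 24.6 and 21.1 CPM at P3 and 1.57, 2.301 and 2.52 CPM at P56. Mki67, a marker of cycling cells, was at 66.2, 69.8 and 64.7 CPM at P3 and 9.12, 12.7 and 10.7 CPM at P56. The ages stood well apart for both genes, and the falls were 10.5-fold and 6.15-fold (log2 change -3.39 (SE 0.15, adjusted p = 2.02e-09) and -2.62 (SE 0.12, adjusted p = 2.50e-09)). Top2a, a topoisomerase of dividing cells, fell by 2.74 and Ccnb2, a mitotic cyclin, by 4.31. In WT these genes changed by -3.06 (Cdk1), -2.95 (Mki67), -3.06 (Top2a) and -3.65 (Ccnb2), and the difference was called for none of the 4. For Cdk1 it was -0.32, with a 95% interval of -0.82 to 0.17. Cenpf, a kinetochore protein, fell more in Tg (-1.89) than in WT (-0.55), with a difference of -1.34 (SE 0.24, adjusted p = 0.00346). The only member that rose was Cenpa (0.39 (SE 0.14, adjusted p = 0.0217)), a centromeric histone, and it was not called without Tg P3 replicate 1, Tg P3 replicate 3 or Tg P56 replicate 1.

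Many promoters of mitotic genes share a pair of short elements, the CCAAT box, which binds the factor NF-Y, and the cell cycle genes homology region (CHR), which binds the DREAM and MuvB complexes. The 300 bases from 250 before to 50 after each gene start were read from RefSeq (GRCm38.p6) for 11230 of the genes tested. CHR letters (TTTGAA, either strand) were present in 19 of 25 mitosis genes with a promoter in the table (76.0%), 3 of 25 replication genes and 14.5% of all. CCAAT letters (either strand) were present in 20 of 25 mitosis genes (80.0%), 17 of 25 replication genes (68.0%) and 42.8% of all. A match is a description of these letters and not a site shown to be used. The promoters of Cdk1 at chr10:69352913-69353112 (reverse strand), Cdc20 at chr4:118437344-118437543 (reverse strand) and Kif11 at chr19:37376182-37376381 (forward strand) are shown because all 3 hold both elements within about the last 80 bases before the start, with the matches in capitals.
Cdk1: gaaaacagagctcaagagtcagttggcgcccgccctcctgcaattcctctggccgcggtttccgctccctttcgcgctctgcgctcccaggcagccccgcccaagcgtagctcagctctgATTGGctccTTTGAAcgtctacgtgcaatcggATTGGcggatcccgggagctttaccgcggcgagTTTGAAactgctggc
Cdc20: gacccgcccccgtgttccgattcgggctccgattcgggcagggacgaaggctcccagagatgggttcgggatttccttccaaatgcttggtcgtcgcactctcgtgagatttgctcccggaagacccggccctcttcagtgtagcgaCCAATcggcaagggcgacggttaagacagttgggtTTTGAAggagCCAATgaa
Kif11: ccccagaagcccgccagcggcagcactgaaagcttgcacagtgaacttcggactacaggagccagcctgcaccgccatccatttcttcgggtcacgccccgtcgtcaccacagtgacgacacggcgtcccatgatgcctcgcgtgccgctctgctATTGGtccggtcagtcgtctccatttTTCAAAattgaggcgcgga
Cdc20, an activator of the anaphase-promoting complex, was at 20.8, 29.4 and 25.2 CPM at P3 and 2.21, 4.07 and 2.96 CPM at P56 in Tg. Kif11, a motor of the mitotic spindle, was at 25.9, 29.1 and 26.5 CPM at P3 and 3.41, 4.34 and 5.49 CPM at P56. Both fell to a small part of their neonatal level, with log2 changes of -3.02 (SE 0.20, adjusted p = 5.83e-08) and -2.62 (SE 0.20, adjusted p = 1.60e-07).

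DNA replication genes fell too, with 29 of 30 called lower and a median of -1.53 (WT -1.14). Rrm2, a subunit of ribonucleotide reductase, was at 40.5, 32.5 and 31.995 CPM at P3 and 2.76, 5.66 and 4.35 CPM at P56 in Tg. Mcm2, part of the replicative helicase, was at 40.9, 27.9 and 26.1 CPM at P3 and 3.41, 7.97 and 8.53 CPM at P56. Neither gene's ages overlapped, and the changes were -3.03 (SE 0.28, adjusted p = 8.45e-07) and -2.25 (SE 0.35, adjusted p = 1.01e-04). In WT, Mcm2 was at 13.4, 28.8 and 33.4 CPM at P3 and 14.9, 13.04 and 12.6 CPM at P56, a smaller change (-0.90), but the difference of -1.35 (SE 0.49, adjusted p = 0.0847) was called in DESeq2 only. Pola1, the catalytic subunit of DNA polymerase alpha, was the 1 gene of the list with a called difference: it fell in Tg by 1.22 and was not called in WT (0.035), a difference of -1.25 (SE 0.26, adjusted p = 0.00783). WT P3 replicate 1 was low for several of these genes (Mcm2 at 13.4 CPM against 28.8 and 33.4 CPM in the other WT P3 libraries), and without it the difference was -1.05 for Mcm2, not called, and -1.22 for Pola1, still called.

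Among G1 regulators, 9 of 17 fell and 3 rose, against 34.9% and 35.7% of all genes. The 3 became 1 when each library was thinned to the smallest total. Ccnd2, cyclin D2, was at 283, 239 and 244 CPM at P3 and 82.1, 66.9 and 72.96 CPM at P56 in Tg and 193, 269.9 and 275 CPM at P3 and 194, 226 and 195 CPM at P56 in WT. The 3 Tg P56 libraries lay below all the others. It fell 3.45-fold in Tg (-1.79 (SE 0.14, adjusted p = 1.57e-07)) and was not called in WT (-0.26), a difference of -1.52 (SE 0.19, adjusted p = 3.35e-04). Cdkn1c, an imprinted inhibitor of cyclin-dependent kinases, fell in Tg by 2.33 and in WT to a lesser degree (-1.23), a difference of -1.10 (SE 0.24, adjusted p = 0.00965). Cdk6, a G1 kinase, fell in both (-1.78 in Tg and -1.54 in WT). Cdkn1a, the inhibitor p21, was at 47.2, 81.7 and 59.7 CPM at P3 and 289.6, 104 and 65.1 CPM at P56, so the high mean of Tg P56 rested on replicate 1. Its change of 1.28 (SE 0.54, adjusted p = 0.0495) was 0.41 without that library, and the call was also lost without any 1 of the Tg P3 libraries, WT P3 replicates 2 or 3 or WT P56 replicates 1 or 2.

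All 13 imprinted growth genes tested fell in Tg, with a median of -3.86 (WT -3.33). Igf2, a fetal growth factor, was at 3225, 3293 and 3574 CPM at P3 and 22.3, 34.96 and 34.6 CPM at P56. This was a 109.8-fold fall (-6.78 (SE 0.17, adjusted p = 4.08e-11)), and in WT the change was -5.90. Plagl1, a zinc finger factor of the imprinted network, was at 576, 651 and 679.6 CPM at P3 and 8.196, 7.17 and 7.57 CPM at P56, a change of -6.38 (SE 0.24, adjusted p = 3.57e-10) against -6.23 in WT. Mest and Peg3 fell by 6.69 and 4.01 (WT -6.53 and -4.07). Dlk1, a membrane ligand of the Notch family, was at 105, 110.2 and 114 CPM at P3 and 0, 0.177 and 0.174 CPM at P56, so that at P56 it was almost gone. Igf2r, which clears IGF2, fell by 2.33. Rtl1, a retrotransposon-derived imprinted gene, fell by 6.25 in Tg (WT -3.03).

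Oncofetal RNA-binding and chromatin genes followed the same course, with 10 of 11 lower and a median of -2.57 (WT -2.23). Igf2bp1, which binds Igf2 and other fetal mRNAs, was at 14.1, 16.9 and 19.3 CPM at P3 and at 0 in all 3 Tg P56 libraries. Set against a floor of 3 counts per library, it was at least 62.7-fold lower. Igf2bp3 was at 44.4, 53.5 and 52.2 CPM at P3 and 1.29, 1.24 and 0.697 CPM at P56, a fall of 5.53 in log2. Lin28b, a repressor of let-7 microRNAs, and Hmga2, a let-7 target that bends DNA, fell by 4.60 and 4.24 from low levels (2.09, 2.84 and 2.13 CPM and 4.44, 5.16 and 4.304 CPM at P3). The member not called was Hmga1 (0.059), at 121, 120.02 and 107 CPM at P3 and 127, 120.2 and 116 CPM at P56.

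Isoform switches of the contractile apparatus were made in Tg hearts, but not all of them to the WT extent. Tnni1, the slow skeletal troponin I of the fetal heart, was at 1588, 1553 and 1399.8 CPM at P3 and 1.75, 0.885 and 2.61 CPM at P56. It fell by 9.75 in log2, while Tnni3, the adult cardiac troponin I, rose 2.29-fold from 1848, 1695 and 1565 to 3673, 4028 and 3976 CPM. Both changes were smaller than in WT (differences of 1.99 (SE 0.45, adjusted p = 0.0118) and -0.67 (SE 0.14, adjusted p = 0.00882)). In WT, Tnni1 at P56 was at 0.289, 0.365 and 0.5004 CPM and Tnni3 at 5825, 5461 and 5781 CPM. The log2 ratio of adult to neonatal troponin I rose by 10.66 in Tg and by 12.44 in WT. All isoform ratios given here were taken after a small constant was added to both levels. Tnni1 at P56 was near that constant, most of all in WT. This held the P56 ratios down, so the gap between the genotypes is uncertain for this pair. An exact two-sided permutation test of a ratio with 3 libraries against 3 cannot go below 0.1, which each of the 14 pairs reached for age in Tg.

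Among the 14 pairs, the ratio of the myosin heavy chains had the largest gap between its Tg and WT change. Myh7, the slow isoform that predominates before birth, was at 11303, 15325 and 13579 CPM at P3 and 4997, 892 and 1178 CPM at P56 in Tg. In WT it was at 21029, 14554 and 12829 CPM at P3 and 157, 150.1 and 176 CPM at P56. The Tg ages did not overlap, but Tg P56 lay far above WT P56, most of all in replicate 1. Myh7 fell 5.69-fold in Tg and 100.1-fold in WT (log2 changes of -2.51 (SE 0.51, adjusted p = 7.35e-04) and -6.65 (SE 0.62, adjusted p = 1.01e-06)), a difference of 4.14 (SE 0.71, adjusted p = 0.00264). Myh6, the fast adult isoform, was at 18096, 15015 and 15524 CPM at P3 and 28308, 31132 and 34176 CPM at P56 and rose by 0.94 (SE 0.15, adjusted p = 9.78e-05). In WT it changed by 1.39, and the difference was not called (95% interval -0.90 to 0.0061). The log2 ratio of Myh6 to Myh7 rose by 3.88 in Tg and by 8.03 in WT. The 2 genes are alike in long stretches and how reads were divided between them is not recorded, so both values are uncertain.

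Actin ran the other way. Acta1, skeletal muscle alpha-actin, was at 107, 86.2 and 129.8 CPM at P3 and 5503, 6806 and 7324 CPM at P56 in Tg and 50.2, 143 and 91.2 CPM at P3 and 539.7, 314 and 249 CPM at P56 in WT. It rose 60.7-fold in Tg (5.92 (SE 0.41, adjusted p = 6.91e-08)) and by 1.96 in WT, a difference of 3.97 (SE 0.49, adjusted p = 3.51e-04). Actc1, the cardiac isoform, differed little between the ages, at 16182, 16737 and 16094 CPM at P3 and 17822, 19803 and 20589 CPM at P56. The log2 ratio of Actc1 to Acta1 therefore moved by -5.68 in Tg and by -1.65 in WT, both away from the adult isoform.

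Creatine kinase switched only in part. The brain isoform Ckb was at 97.9, 97.3 and 82.7 CPM at P3 and 45.6, 48.2 and 59.8 CPM at P56 and fell (-0.85 (SE 0.12, adjusted p = 4.13e-05)), as in WT (-0.73). The muscle isoform Ckm was at 2303, 2185 and 2031 CPM at P3 and 1780.4, 2104 and 2095 CPM at P56 in Tg and was not called (-0.12 (SE 0.092, adjusted p = 0.243)), while in WT it rose by 0.64, a difference of -0.77 (SE 0.13, adjusted p = 0.00254). Metabolic pairs switched in both genotypes. Hk1 fell and Hk2, the insulin-responsive hexokinase, rose from 66.9, 50.4 and 55.3 to 306, 325 and 340.3 CPM, which moved their log2 ratio by 3.31 (WT 3.65). The cytochrome oxidase pairs Cox6a1 and Cox6a2, Cox7a2 and Cox7a1, and Cox8a and Cox8b moved by 3.17, 2.96 and 3.08 (WT 3.10, 2.63 and 3.06). Over the other pairs, from Slc2a1 and Slc2a4 to Fabp5 and Fabp3, the ratio moved by 1.54 (Pgam1 and Pgam2) to 3.71 (Fabp5 and Fabp3) in Tg.

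**Figure D3:**
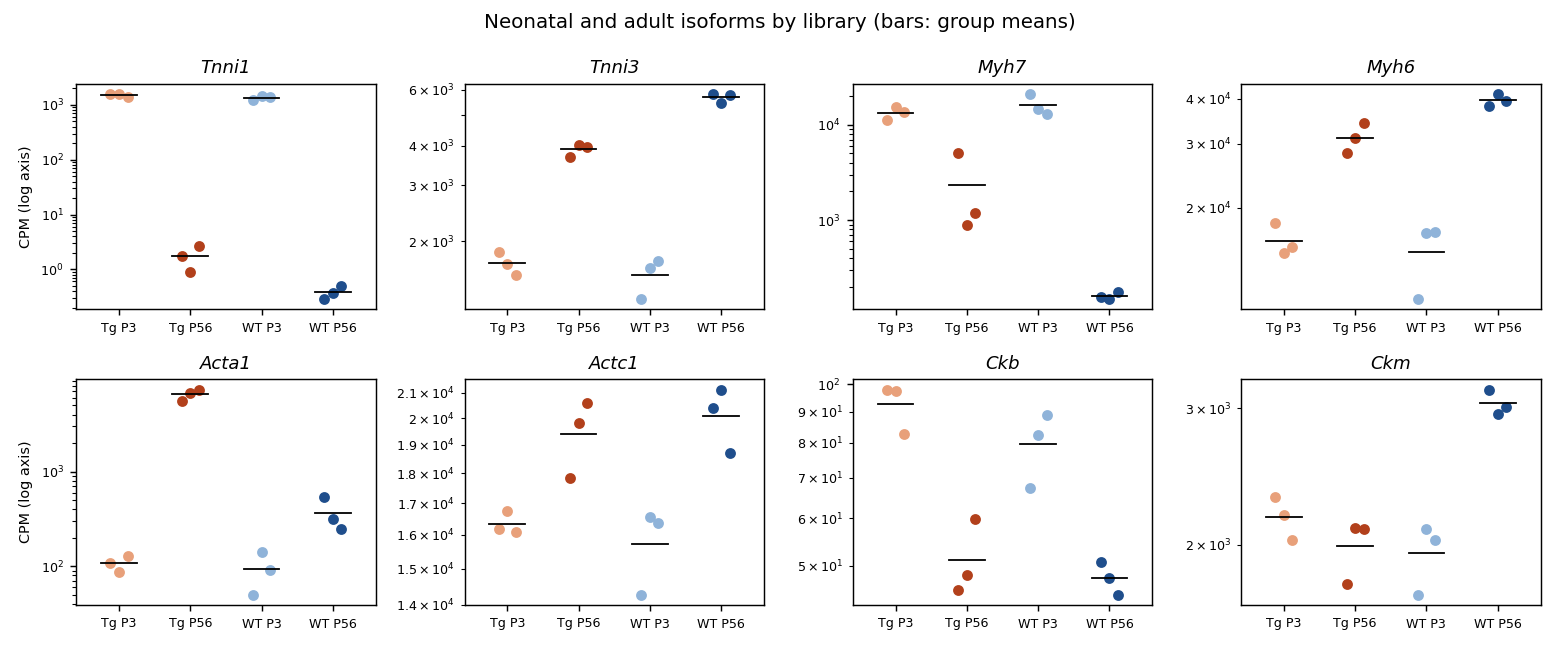
CPM on a log axis in each of the 12 libraries for 4 neonatal and adult isoform pairs, by genotype and age, with a bar at each group's mean. In Tg P56 Tnni1 lies at 1.75, 0.885 and 2.61 CPM, Myh7 at 4997, 892 and 1178 CPM (WT P56 157, 150.1 and 176 CPM) and Acta1 at 5503, 6806 and 7324 CPM (WT P56 539.7, 314 and 249 CPM).

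Sarcomere and Z-disc genes rose as a group: 27 of 28 were higher and 1, Nebl, was lower, with a median of 1.16 (WT 0.73). The rise was larger in Tg for 12 members and smaller for none. Xirp2, an actin-binding protein of the intercalated disc and costamere, was at 20.5, 16.5 and 21.7 CPM at P3 and 3506, 1801 and 1868 CPM at P56 in Tg and 549, 484 and 556 CPM in WT P56, a change of 6.93 (SE 0.27, adjusted p = 5.07e-10) with a difference of 2.55 (SE 0.31, adjusted p = 3.04e-04). Csrp3, the muscle LIM protein of the Z-disc, was at 525, 543 and 547 CPM at P3 and 2108, 1938 and 1976 CPM at P56. It rose 3.73-fold, and by 0.71 in WT, a difference of 1.19 (SE 0.15, adjusted p = 3.78e-04). Flnc, the muscle filamin, was at 455, 425 and 447 CPM at P3 and 855, 789 and 1015 CPM at P56 in Tg and rose (1.003 (SE 0.10, adjusted p = 1.40e-06)), while in WT it fell (-0.41 (SE 0.10, adjusted p = 0.00222)). Tcap, telethonin, rose by 4.74 (WT 5.05) and Lmod2, an actin nucleator of thin filaments, by 3.66 (WT 2.82). Nebl (-0.19 (SE 0.070, adjusted p = 0.0311)) was not called without any 1 of Tg P3 replicates 1 and 2 and Tg P56 replicates 2 and 3.

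Calcium handling genes changed in both directions, with 13 of 22 higher and 8 lower, against 35.7% and 34.9% of all genes. Hrc, a calcium-binding protein of the sarcoplasmic reticulum, was at 160.02, 117 and 131 CPM at P3 and 1263, 1304 and 1322 CPM at P56, a 9.54-fold rise (3.25 (SE 0.13, adjusted p = 5.07e-10)) that was 3.34 in WT. Atp2a2, the SERCA2 pump, was at 5698, 5263 and 5010.000000 CPM at P3 and 12107, 13579 and 13708 CPM at P56 and rose by 1.30 in log2 (WT 1.78). Pln, its inhibitor phospholamban, rose by 1.02 (WT 1.32). Ryr2, the calcium release channel, rose by 0.96 in Tg from 1343, 1287 and 1163 to 2532, 2396 and 2431 CPM and by 0.34 in WT. Cacna2d1, a subunit of the L-type calcium channel, rose more in Tg (2.18) than in WT (1.68), a difference of 0.50 (SE 0.11, adjusted p = 0.00873). The sodium-calcium exchanger Slc8a1, abundant in the neonatal heart, fell by 1.74 (WT -1.64).

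Of 23 ion channel genes, 16 rose and 5 fell, against 35.7% and 34.9% of all genes. Their medians were 1.21 in Tg and 1.20 in WT. Scn4b, a sodium channel subunit, was at 0.418, 0.369 and 0.415 CPM at P3 and 34.4, 56.3 and 62.9 CPM at P56 and rose by 6.97 (WT 6.76). Kcne1, a potassium channel subunit of the young heart, was at 235, 184 and 169 CPM at P3 and 11.5, 20.9 and 17.9 CPM at P56 and fell by 3.54 (WT -4.34). Against 8.42% and 6.42% of all genes, the difference was more positive for 3 of the 23 and more negative for 4. Among the latter Kcnip2, the subunit of the transient outward current, was at 91.2, 75.9 and 73.5 CPM at P3 and 118, 182 and 147 CPM at P56 in Tg and 91.1, 92.4 and 73.5 CPM at P3 and 357, 359 and 328 CPM at P56 in WT, a difference of -1.13 (SE 0.20, adjusted p = 0.00319). Kcnj2, the inward rectifier, was at 22.1, 16.5 and 20.9 CPM at P3 and 30.1, 22.8 and 30.5 CPM at P56 in Tg and at 59.9, 59.3 and 56.6 CPM in WT P56, a difference of -1.07 (SE 0.19, adjusted p = 0.00349). Kcnh2, the ERG channel, fell in Tg (-0.68 (SE 0.10, adjusted p = 4.50e-05)) and was not called in WT (0.14), a difference of -0.82 (SE 0.14, adjusted p = 0.00233). Cacna1h, a fetal T-type calcium channel, was at 88.3, 62.8 and 75.97 CPM at P3 and 22.4, 28.3 and 29.1 CPM at P56 and fell less in Tg (-1.51) than in WT (-2.59), a difference of 1.08 (SE 0.20, adjusted p = 0.00454).

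At the intercalated disc, which joins muscle cells end to end, 6 of 13 genes rose and 5 fell in Tg, against 35.7% and 34.9% of all genes (WT 1 and 5). Dsp, desmoplakin, was at 1104, 1108 and 997 CPM at P3 and 3317, 2437 and 2721 CPM at P56 in Tg, a 2.64-fold rise (1.40 (SE 0.14, adjusted p = 1.79e-06)), and was not called in WT (0.22), a difference of 1.18 (SE 0.19, adjusted p = 0.00202). Pkp2, plakophilin 2, rose by 0.53 in Tg and was at -0.18 in WT without a call, a difference of 0.71 (SE 0.13, adjusted p = 0.00362). Gja1, the main ventricular gap junction protein, was at 429.6, 420.3 and 435 CPM at P3 and 200.3, 181 and 308 CPM at P56 and fell (-0.90 (SE 0.16, adjusted p = 3.03e-04)), as it did in WT (-0.43).

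The oxidative programme rose in Tg hearts by less than in WT. Over the citric acid cycle and pyruvate dehydrogenase, 17 of 21 genes rose in Tg and 1 fell, with a median of 0.51 (WT 1.08). For 19 of the 21 the difference was called more negative, against 6.42% of all genes, and for none more positive. The list summed to 12760 to 13950 CPM in Tg P3 and 11500 to 12890 CPM in WT P3, ranges that overlap with Tg the higher. At P56 the sums were 19510 to 19840 CPM in Tg and 25790 to 26800 CPM in WT. Ogdh, a subunit of the 2-oxoglutarate dehydrogenase complex, was at 1155, 999.9 and 942 CPM at P3 and 2708, 2740.3 and 2758 CPM at P56 in Tg and 905, 1029 and 954 CPM at P3 and 3899, 3998 and 3783 CPM at P56 in WT. Its rise was called in both (1.41 and 2.02), with a difference of -0.61 (SE 0.11, adjusted p = 0.00429). Cs, citrate synthase, was at 1332, 1351 and 1252 CPM at P3 and 1797, 2002 and 2023 CPM at P56 in Tg and rose by 0.57 (WT 1.11), a difference of -0.54 (SE 0.10, adjusted p = 0.00496). Suclg2, a subunit of succinyl-CoA ligase, was at 147, 154 and 142 CPM at P3 and 143, 159 and 144 CPM at P56 in Tg and 133, 141 and 141 CPM at P3 and 235, 230.5 and 234 CPM at P56 in WT. The Tg ages overlapped, with no call (0.010 (SE 0.060, adjusted p = 0.8896)), and the difference from WT was -0.74 (SE 0.085, adjusted p = 2.19e-04). Of the WT P3 libraries, replicate 1 was the lowest for both Ogdh and Suclg2. Idh2, mitochondrial isocitrate dehydrogenase, was the member that fell (-0.48 (SE 0.11, adjusted p = 0.00174)). The mitochondrial pyruvate carrier genes Mpc1 and Mpc2 rose by 2.25 and 1.59 (WT 2.48 and 1.91), and no difference was called for them.

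Of 37 complex I subunits, 35 rose and none fell in Tg, with a median of 0.97 (WT 1.28), and the difference was more negative for 12. Ndufs1, a large subunit of the electron input module, was at 500.2, 478 and 460.4 CPM at P3 and 519, 542 and 544 CPM at P56 in Tg and 390.2, 452 and 431 CPM at P3 and 796, 790.5 and 855 CPM at P56 in WT. It was not called in Tg (0.16, called without WT P3 replicate 1) and rose in WT (0.94), a difference of -0.78 (SE 0.10, adjusted p = 3.51e-04). Ndufb3, a small membrane arm subunit, rose in both (1.53 and 1.62), with no difference called and a 95% interval of -0.34 to 0.17. In complexes II and III 13 of 14 rose, with medians of 0.58 and 1.17 and a more negative difference for 8. Sdhc, an anchor subunit of complex II, was at 374, 374 and 342 CPM at P3 and 479.5, 507 and 495 CPM at P56 in Tg and at 733, 737 and 752 CPM in WT P56, a difference of -0.81 (SE 0.11, adjusted p = 4.56e-04). In complex IV 10 of 13 rose and the fetal isoforms Cox6a1 and Cox8a fell. Of 17 ATP synthase genes 15 rose, with a more negative difference for 7. Atp5b, the catalytic beta subunit, was at 5148, 5268 and 4771 CPM at P3 and 5049.9, 5355 and 5453 CPM at P56 in Tg and 4545, 5012 and 4976 CPM at P3 and 7653, 7503 and 7744 CPM at P56 in WT, so that it was not called in Tg (0.062) and rose in WT (0.66), a difference of -0.59 (SE 0.10, adjusted p = 0.00248).

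Fatty acid genes also rose by less as a list, with 18 of 30 higher, 4 lower and 8 not called in Tg. In WT 27 were higher and 2 lower. The median was 0.51 (WT 0.91), with a more negative difference for 17. For 2 members the call was higher in WT and lower in Tg. The 4 lower genes became 2 without Tg P3 replicate 2. Lpl, which frees fatty acids from lipoproteins, was at 851, 1028 and 920.4 CPM at P3 and 7534, 5831 and 5942 CPM at P56 and rose 6.897-fold, with no difference called (2.64 in WT). Cd36, a fatty acid transporter, rose by 0.66 (WT 0.90), again with no difference called. Differences were called for several enzymes of mitochondrial beta-oxidation. Hadhb, the beta subunit of the trifunctional protein, was at 959, 892 and 844 CPM at P3 and 1386, 1428 and 1383 CPM at P56 in Tg and 667, 833 and 765 CPM at P3 and 2221, 2086 and 2291 CPM at P56 in WT, a difference of -0.90 (SE 0.12, adjusted p = 4.79e-04). Hadha, its partner subunit, was at 1693, 1530.000000 and 1525 CPM at P3 and 1419, 1481 and 1479 CPM at P56 in Tg, with no call (-0.12), and rose in WT (0.68), a difference of -0.79 (SE 0.12, adjusted p = 9.81e-04). Acadm, medium-chain acyl-CoA dehydrogenase, rose by 0.88 against 1.57, a difference of -0.69 (SE 0.10, adjusted p = 9.64e-04). Etfdh, which passes electrons from fatty acids to ubiquinone, was at 500.2, 463 and 474 CPM at P3 and 488, 525 and 505 CPM at P56 with overlapping ages in Tg (0.080) and rose in WT (0.85), a difference of -0.77 (SE 0.10, adjusted p = 4.66e-04). Acot2, a mitochondrial thioesterase, fell from 301, 319 and 301 to 63.4, 72.1 and 66.95 CPM, by more than in WT (-2.19 and -1.36). Cpt1a, the neonatal carnitine palmitoyltransferase, fell in both (-1.86 and -1.67).

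Genes that break down branched-chain amino acids and ketone bodies rose in 17 of 18 cases, with a median of 0.84 (WT 1.13) and a more negative difference for 10. Oxct1, the entry enzyme of ketone oxidation, was at 302, 302 and 269.9 CPM at P3 and 1364, 1351 and 1349 CPM at P56, a 4.65-fold rise that was 2.78 in log2 in WT against 2.22. Bckdha, of the branched-chain keto acid dehydrogenase, was at 72.3, 83.3 and 75.03 CPM at P3 and 178, 168 and 179.7 CPM at P56 in Tg and 332, 273 and 296 CPM in WT P56, a difference of -0.78 (SE 0.12, adjusted p = 0.00175). The cardiomyocyte marker sum rose over the same libraries, to 101000 to 110100 CPM in Tg P56 and 115300 to 117000 CPM in WT P56, and its part in these results was not tested.

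**Figure D4:**
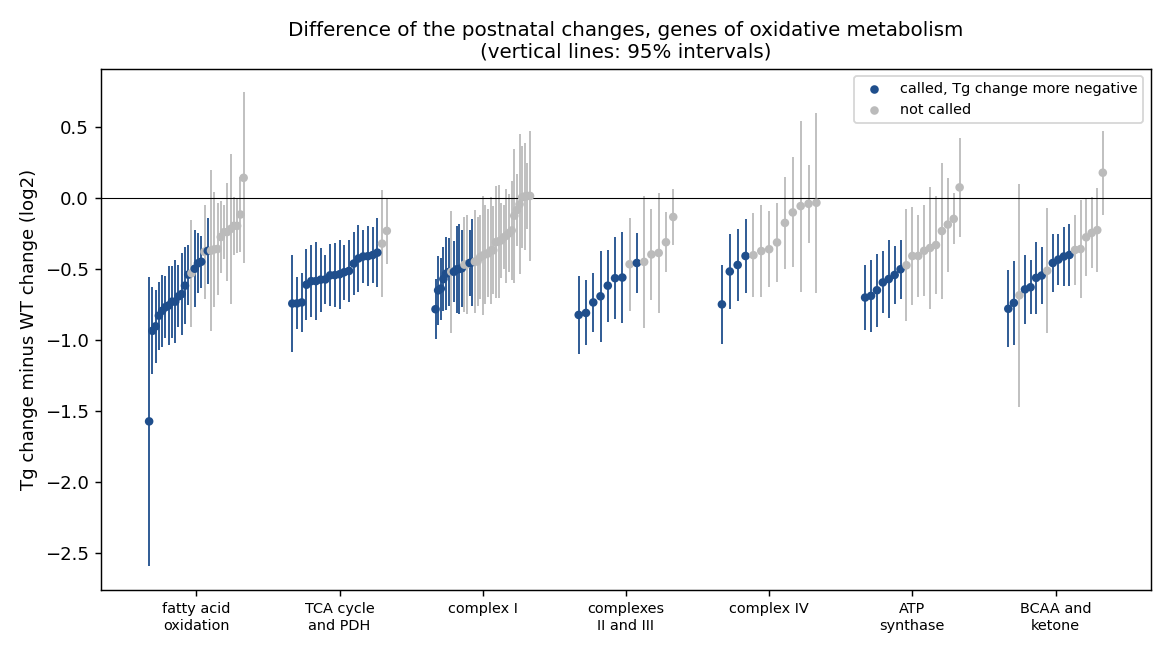
Difference of the log2 changes (Tg minus WT) with its 95% interval for each tested gene of the oxidative lists. Most points lie below 0, blue points are genes called for a more negative change in Tg, and grey points were not called.

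Transcriptional regulators of energy metabolism rose in 12 of 24 cases and fell in 6, against 35.7% and 34.9% of all genes. The difference was more negative for 4 and more positive for none. Rxrg, a partner of nuclear receptors, was at 1.93, 1.05 and 1.4001 CPM at P3 and 63.4, 71.1 and 63.99 CPM at P56 and rose by 5.49 (WT 5.56). Ppara, a receptor that drives fatty acid genes, was at 36.2, 39.7 and 35.7 CPM at P3 and 133, 146 and 104 CPM at P56, a change of 1.78 (SE 0.18, adjusted p = 2.47e-06) against 1.93 in WT. Perm1 and Ppard rose by 2.39 and 1.57 (WT 2.53 and 1.50). No difference was called for these 4. Ppargc1a, the coactivator PGC-1 alpha, was at 113, 152 and 133 CPM at P3 and 129, 119 and 99.3 CPM at P56 in Tg and was not called in either genotype (-0.20 and 0.31). Its relative Ppargc1b was at 96.3, 84.9 and 83.4 CPM at P3 and 27.2, 41.2 and 51.1 CPM at P56 in Tg and fell (-1.15 (SE 0.17, adjusted p = 6.27e-05)), and in WT it was at 79.6, 92.5 and 82.3 CPM at P3 and 73.7, 68.04 and 59.04 CPM at P56 without a call (-0.34). The difference of -0.80 (SE 0.24, adjusted p = 0.0402) was lost without any 1 of the Tg P3 libraries, Tg P56 replicate 2, WT P3 replicates 1 or 3, or WT P56 replicates 1 or 2. Tfb2m, a mitochondrial transcription factor, rose less in Tg (0.65) than in WT (1.24), a difference of -0.59 (SE 0.11, adjusted p = 0.00392). The list's median of 0.67 (WT 0.46) was 0.39 without Tg P56 replicate 1.

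In glycolysis 14 of 23 genes rose and 5 fell, against 35.7% and 34.9% of all genes. The difference was more positive for 2 and more negative for 4, against 8.42% and 6.42% of all genes. Aldoc, the brain-type aldolase, fell by 5.60 (WT -6.43) and Pfkm, muscle phosphofructokinase, rose by 1.86 (WT 1.94). Pfkp, the platelet-type phosphofructokinase, was at 156, 168 and 172 CPM at P3 and 210.2, 146 and 156 CPM at P56 in Tg and 196, 165 and 171 CPM at P3 and 81.1, 80.3 and 76.3 CPM at P56 in WT. It fell in WT (-1.16) and was not called in Tg (0.044), a difference of 1.21 (SE 0.17, adjusted p = 6.82e-04). Pfkfb1, which sets the level of an activator of glycolysis, rose by 0.60 in Tg and 2.70 in WT, a difference of -2.10 (SE 0.22, adjusted p = 1.37e-04).

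The thyroid and glucocorticoid axis, which times cardiac maturation, moved in 9 of 15 genes upwards and in 2 downwards. Over all genes 35.7% rose and 34.9% fell. Thrb, thyroid hormone receptor beta, was at 3.45, 2.84 and 1.92 CPM at P3 and 23.8, 24.96 and 23.8 CPM at P56 and rose by 3.14 (WT 3.13), while Thra, the alpha receptor, fell by 1.15 (WT -1.09). The target Hr rose from 3.19, 1.84 and 2.75 to 132, 104 and 108 CPM, and Klf9, a target of both hormones, by 1.90 (WT 1.86). Dio2, which makes active thyroid hormone, was at 8.16, 9.58 and 6.95 CPM at P3 and 17.5, 8.67 and 15.8 CPM at P56 in Tg and 11.6, 8.36 and 7.97 CPM at P3 and 1.93, 2.64 and 0.901 CPM at P56 in WT: it fell in WT (-2.33), and the difference was 3.10 (SE 0.44, adjusted p = 8.93e-04).

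Beyond Igf2, differences were called for binding proteins of the IGF axis. Igfbp5, which holds IGFs in the matrix, was at 1141, 1188 and 1223 CPM at P3 and 432, 471 and 655 CPM at P56 in Tg and 1247, 1093 and 1170.1 CPM at P3 and 155, 159.6 and 145 CPM at P56 in WT. It fell in both (-1.19 and -2.93), by less in Tg (difference 1.75 (SE 0.18, adjusted p = 1.15e-04)). Igfbp7 was at 89.7, 88.6 and 79.1 CPM at P3 and 528, 457 and 565 CPM at P56 in Tg and rose by more than in WT (2.59 and 1.46, difference 1.13 (SE 0.20, adjusted p = 0.003202)). The ligand Igf1 fell by 1.12 (WT -1.61).

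Among the lists other than cell markers, the Tg and WT medians lay furthest apart for matricellular genes. The median of the differences of single genes was larger for cardiac stress markers (2.92) than for matricellular genes (1.29). Of 28 matricellular and elastic fibre genes 15 rose and 11 fell in Tg, with a median of 0.68 against -1.66 in WT. The difference was more positive for 19 and more negative for 1, Thbs2, against 8.42% and 6.42% of all genes. Fibroblast markers, which overlap these lists, moved with them: 8 of 12 rose and 3 fell in Tg, their sum went from 2458 to 2620.000000 to 4312 to 4876 CPM in Tg and from 1783 to 2725 to 2778 to 3067 CPM in WT, and their part in the matrix results was not tested. Among defining markers, Tcf21 fell (-1.27 in Tg, -1.68 in WT) and Pdgfra rose in Tg (0.60) without a call in WT (-0.11).

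Thbs4, a thrombospondin of stressed muscle and matrix, was at 25.3, 35.7 and 36.04 CPM at P3 and 143, 158 and 249 CPM at P56 in Tg and 45.9, 31.8 and 42.3 CPM at P3 and 5.301, 6.84 and 5.304 CPM at P56 in WT. All Tg P56 libraries lay above Tg P3 and all WT P56 libraries lay below WT P3. It rose 5.68-fold in Tg (2.51 (SE 0.21, adjusted p = 4.59e-07)) and fell in WT (-2.78), a difference of 5.28 (SE 0.34, adjusted p = 6.40e-06). Fbln2, fibulin 2, was at 178, 197 and 183 CPM at P3 and 341, 261 and 287 CPM at P56 in Tg and rose (0.67 (SE 0.11, adjusted p = 1.56e-04)), and fell in WT (-0.53). Timp1, an inhibitor of matrix proteases, was at 9.98, 11.5 and 10.1 CPM at P3 and 33.5, 12.7 and 17.1 CPM at P56 in Tg and rose (0.999 (SE 0.26, adjusted p = 0.00436)), and fell in WT (-1.91). Opposite calls were also made for Mfap4, Fmod, Thbs1 and Spp1, with Tg changes of 0.68 to 0.97, but these Tg calls were lost when single libraries were left out. That held for Fmod without Tg P56 replicate 3, and for Mfap4 without Tg P3 replicate 1 or Tg P56 replicates 1 or 3. It held for Spp1 without Tg P3 replicates 1 or 2 or Tg P56 replicates 1 or 3, WT P3 replicate 3 or any WT P56 library. It held for Thbs1 without Tg P3 replicates 1 or 3, Tg P56 replicate 1 (a change of 0.23) or any WT P56 library. For Thbs1 the Tg ages overlapped, at 35.5, 64.2 and 62.1 CPM at P3 and 168, 50.9 and 76.6 CPM at P56. Cilp, a matrix protein of the interstitium, was at 0.889, 1.69 and 1.24 CPM at P3 and 197, 203 and 292 CPM at P56 in Tg and 10.1, 13.6 and 13.1 CPM in WT P56, a change of 7.49 (SE 0.28, adjusted p = 4.08e-10) against 3.04. Bgn, the proteoglycan biglycan, was at 344, 463 and 431 CPM at P3 and 1943, 1454 and 1748 CPM at P56 and rose 4.15-fold in Tg, without a call in WT (0.16), a difference of 1.89 (SE 0.19, adjusted p = 1.03e-04).

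Postn, Vcan, Fn1 and Fbn2 fell in both genotypes, by less in Tg, whereas Thbs2 (-1.94, WT -0.85) fell by more in Tg. Postn, periostin of the growing and injured heart, was at 795, 781 and 928 CPM at P3 and 352, 365 and 519.7 CPM at P56 in Tg and 615, 857 and 862 CPM at P3 and 46.1, 48.3 and 50.4 CPM at P56 in WT, with log2 changes of -1.02 (SE 0.16, adjusted p = 7.84e-05) and -4.01, a difference of 2.99 (SE 0.23, adjusted p = 1.87e-05). Vcan, the proteoglycan versican, was at 122, 141 and 146 CPM at P3 and 72.8, 66.03 and 69.04 CPM at P56 in Tg and 12.7, 15.5 and 15.3 CPM in WT P56, a difference of 2.49 (SE 0.20, adjusted p = 2.48e-05). Fn1, fibronectin, fell from 749, 785 and 883 to 117, 151 and 155 CPM (log2 change -2.51, WT -3.25). Fbn2, the fetal fibrillin, fell from 136, 138 and 135 to 2.49, 1.95 and 2.26 CPM, by 5.93 in log2.

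Of 21 genes for fibrillar collagens and their processing, 7 rose and 11 fell in Tg (median -0.52, WT -1.07). Over all genes 35.7% rose and 34.9% fell. The difference was more positive for 13 and more negative for none, against 8.42% and 6.42% of all genes. Col1a1, the main chain of type I collagen, was at 924, 918 and 987 CPM at P3 and 453, 363 and 545 CPM at P56 in Tg and 612, 1066 and 947 CPM at P3 and 154, 158 and 140.4 CPM at P56 in WT. It fell in both (-1.06 and -2.54), with a difference of 1.48 (SE 0.25, adjusted p = 0.00253). Col3a1 fell too (-1.43 and -2.13), and the difference, 0.70 (SE 0.25, adjusted p = 0.0842), was called only in DESeq2 and where WT P3 replicate 1 was left out. Loxl3, a lysyl oxidase that links collagen chains, was at 8.05, 7.004 and 7.99 CPM at P3 and 28.7, 15.6 and 25.4 CPM at P56 and rose (1.60 (SE 0.19, adjusted p = 9.65e-06)) without a call in WT (-0.48), a difference of 2.08 (SE 0.28, adjusted p = 6.60e-04). In the basement membrane, Col4a3 was at 1.99, 2.16 and 2.44 CPM at P3 and 31.1, 32.9 and 35.4 CPM at P56 in Tg and 7.23, 8.48 and 9.71 CPM in WT P56, a difference of 2.56 (SE 0.27, adjusted p = 1.28e-04). Its chain partner Col4a4 rose by 2.96 (WT 1.36), and Col4a1, of the common network, fell by 0.89 (WT -1.39).

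Ligands and receptors of the TGF-beta family, which drives matrix production, rose in 10 of 21 cases and fell in 9, against 35.7% and 34.9% of all genes. Their median was 0.37 (WT -0.36). The difference was more positive for 7 and more negative for 1, against 8.42% and 6.42% of all genes. Tgfb3 was at 22.3, 30.7 and 31.995 CPM at P3 and 60.7, 52.8 and 67.1 CPM at P56 in Tg and 31.1, 28.8 and 37.8 CPM at P3 and 25.1, 24.7 and 26.5 CPM at P56 in WT. It rose in Tg (1.09 (SE 0.14, adjusted p = 1.78e-05)) and fell in WT (-0.36 (SE 0.14, adjusted p = 0.0428)), a difference of 1.45 (SE 0.20, adjusted p = 7.33e-04). The receptor gene Tgfbr1 likewise rose in Tg (0.55) and fell in WT (-0.57), a difference of 1.12 (SE 0.17, adjusted p = 0.00107). Ltbp2, which binds fibrillin microfibrils, was at 2.67, 14.6 and 10.4 CPM at P3 and 101, 49.7 and 83.1 CPM at P56 in Tg and 3.28, 4.74 and 5.004 CPM in WT P56, a difference of 4.19 (SE 0.69, adjusted p = 0.00205). Bmp10 is a ligand of the embryonic heart and later the atrium. It was at 6.27, 8.69 and 36.5 CPM at P3 and at 0 in all Tg P56 libraries, with most of the P3 level in replicate 3. The part of atrial tissue in the Bmp10 values was not tested. Bmp7 fell by 5.43 (WT -4.16).

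Ctgf and Cyr61, matrix-bound proteins and known targets of the Hippo pathway, were on a list of 15 Notch, Wnt and Hippo target genes, of which 5 rose and 7 fell in Tg (35.7% and 34.9% of all genes). The difference was more positive for 3, Ctgf, Cyr61 and Frzb, and more negative for 4, among them Amotl2 (-0.89 (SE 0.19, adjusted p = 0.00947)), an angiomotin that fell in Tg (-1.24, WT -0.36). The 4 became 1 without both libraries low in Y-linked transcripts, and 2 without any 1 of Tg P3 replicates 1 or 2, Tg P56 replicates 1 or 3, WT P3 replicates 1 or 3 or WT P56 replicate 1. Ctgf was at 119, 262 and 257 CPM at P3 and 894, 499 and 658 CPM at P56 in Tg and 382, 191 and 306 CPM at P3 and 77.6, 95.1 and 124 CPM at P56 in WT, with the Tg ages apart. It rose 3.21-fold in Tg (1.68 (SE 0.33, adjusted p = 5.14e-04)) and fell in WT (-1.57), a difference of 3.25 (SE 0.46, adjusted p = 8.56e-04). Cyr61 was at 64.1, 105 and 107 CPM at P3 and 224, 176 and 217 CPM at P56 in Tg, rising by 1.16 where it fell in WT (-0.66), a difference of 1.83 (SE 0.25, adjusted p = 6.65e-04). Frzb, a secreted Wnt antagonist, also rose in Tg (1.61 (SE 0.16, adjusted p = 1.64e-06)) and fell in WT (-0.56). Hey2, a Notch target of the young ventricle, fell from 98.8, 104 and 105 to 5.802, 6.99 and 3.83 CPM in Tg (-4.21, WT -3.75).

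**Figure D5:**
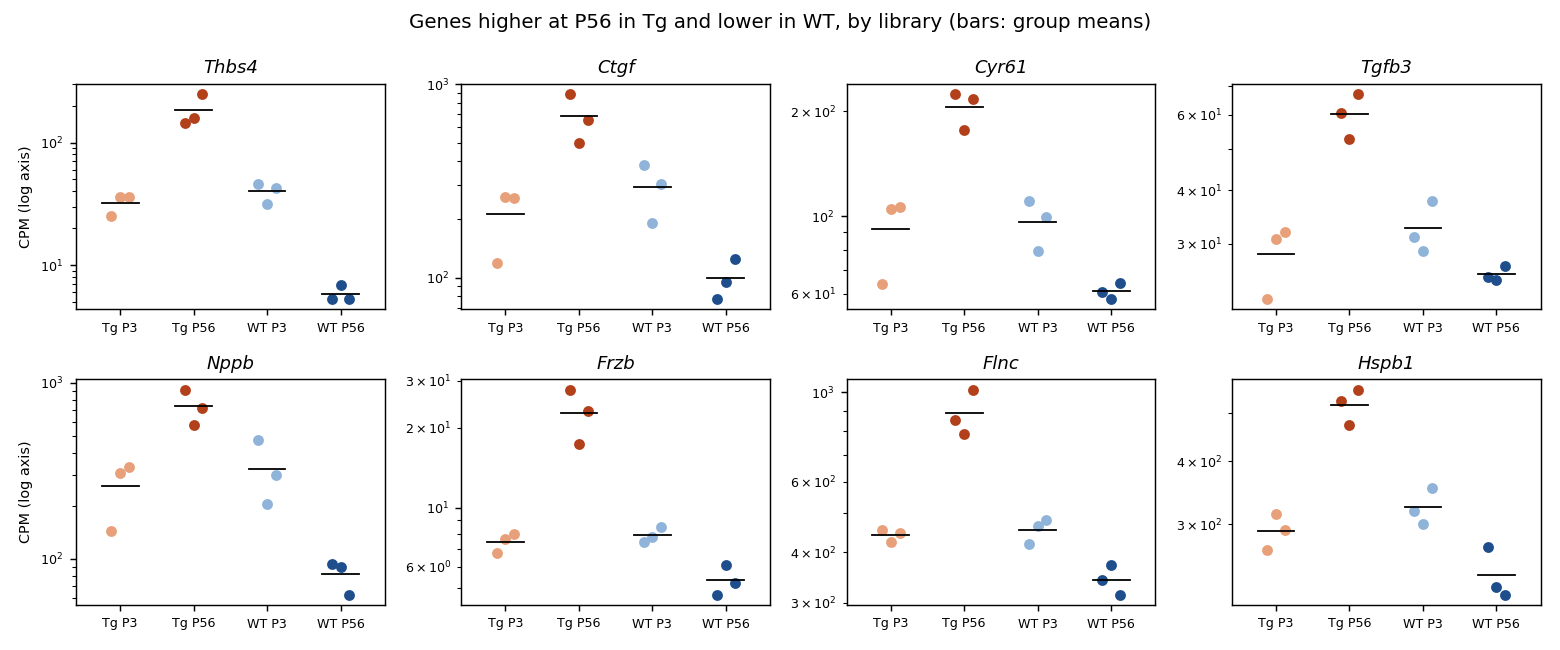
CPM on a log axis in each of the 12 libraries for 8 genes that rose in Tg and fell in WT between P3 and P56, with a bar at each group's mean. The P3 groups of Tg and WT overlap, and at P56 every Tg library lies above every WT library.

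Of 16 cardiac stress markers 12 rose, 3 fell and 1 (Gdf15) was not called in Tg, with a median of 1.59 against -0.37 in WT, and the difference was more positive for 15. Earlier results had shown these genes high in Tg at P56, so the count is no independent evidence of that. Nppb, the B-type natriuretic peptide, was at 144, 306 and 334 CPM at P3 and 914, 574 and 720.04 CPM at P56 in Tg and 474, 204 and 299.7 CPM at P3 and 94.2, 90.1 and 62.7 CPM at P56 in WT. It rose 2.82-fold in Tg (1.50 (SE 0.34, adjusted p = 0.001504)) and fell in WT (-1.98), a difference of 3.48 (SE 0.48, adjusted p = 7.07e-04). Rcan1, a calcineurin inhibitor and target, was at 78.8, 91.4 and 82.97 CPM at P3 and 502, 343 and 419 CPM at P56 in Tg and rose 4.995-fold, without a call in WT (-0.29), a difference of 2.61 (SE 0.19, adjusted p = 1.08e-05). Ankrd1, a stretch-sensing protein of the sarcomere, was at 556, 845 and 1048 CPM at P3 and 3584, 2198 and 3256 CPM at P56 in Tg, a change of 1.88 (SE 0.25, adjusted p = 2.17e-05), and was not called in WT (-0.33). Nppa, the atrial natriuretic peptide, was at 894, 1477 and 2287 CPM at P3 and 993, 483 and 630.1 CPM at P56, where the ages overlapped, and the Tg change was -1.15 (SE 0.38, adjusted p = 0.01695) against -4.07 in WT. The Tg call was lost without Tg P3 replicate 3 or Tg P56 replicate 2, and the difference was 2.92 (SE 0.55, adjusted p = 0.004201). Atrial markers, a list that holds Nppa itself, varied among the libraries. Their sum was 2481 to 5234 CPM in Tg P3 and 2045 to 2940.000000 CPM in Tg P56. In WT the sum was 3445 to 8118 CPM at P3 and 1050 to 1092 CPM at P56. Myl7 was at 39.9, 117 and 237 CPM at P3 and 6.63, 0.266 and 65.6 CPM at P56 in Tg. The part of atrial tissue in the Nppa values was not tested.

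The M-CAT element (CATTCC, either strand), which TEAD factors bind in muscle promoters, was present in the promoters of 6 of 15 stress markers (40.0%) and 9 of 22 sarcomere genes (40.9%) in the RefSeq table, against 14.7% of all. The 150 bases of Acta1 at chr8:123894776-123894925 (reverse strand), Nppb at chr4:147985750-147985899 (forward strand) and Ankrd1 at chr19:36119845-36119994 (reverse strand) are shown because all 3 rose in Tg with a called difference from WT, where Acta1 alone rose, and the matches are in capitals.
Acta1: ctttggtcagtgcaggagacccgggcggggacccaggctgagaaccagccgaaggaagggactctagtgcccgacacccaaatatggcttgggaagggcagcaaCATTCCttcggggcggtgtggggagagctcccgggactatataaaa
Nppb: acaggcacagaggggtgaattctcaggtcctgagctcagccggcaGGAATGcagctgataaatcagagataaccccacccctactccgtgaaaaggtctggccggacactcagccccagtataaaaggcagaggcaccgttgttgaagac
Ankrd1: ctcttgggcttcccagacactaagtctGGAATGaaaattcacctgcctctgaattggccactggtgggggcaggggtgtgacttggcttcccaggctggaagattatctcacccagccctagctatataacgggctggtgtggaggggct
The matches lie 46, 105 and 123 bases before the start of Acta1, Nppb and Ankrd1. They describe the letters only.

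Chaperones rose in Tg in 17 of 22 cases and fell in none, with a median of 0.67 (WT 0.21). Over all genes 35.7% rose and 34.9% fell. Against 8.42% of all genes, the difference was more positive for 15. It was more negative for 1, Hspd1 (-0.38), the mitochondrial HSP60, a call that was lost without Tg P3 replicate 2 or WT P56 replicate 3. Hspb1, a small heat shock protein of muscle, was at 266, 314 and 292 CPM at P3 and 529, 473 and 556 CPM at P56 in Tg, rising by 0.84 where it fell in WT (-0.45), a difference of 1.29 (SE 0.14, adjusted p = 1.84e-04). Hspb7, a heart-enriched member of the same family, was at 2476, 2124 and 2190.3 CPM at P3 and 8079.8, 7804 and 8192 CPM at P56 and rose by more than in WT (1.83 and 1.21, difference 0.62 (SE 0.13, adjusted p = 0.00716)). Hsph1, a nucleotide exchange factor of HSP70, was at 16.4, 17.9 and 18.3 CPM at P3 and 107, 82.05 and 105 CPM at P56, a 5.58-fold rise (1.48 in log2 in WT). Hspa1a, inducible HSP70, was at 2.77, 2.37 and 3.47 CPM at P3 and 48.3, 22.3 and 104 CPM at P56 and nearly shares its sequence with Hspa1b, so the division between them is uncertain. Hsp90aa1, a cytosolic HSP90, was not called in Tg (0.35, called without Tg P56 replicate 2) and fell in WT (-1.11), a difference of 1.46 (SE 0.22, adjusted p = 0.00114).

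Several of these genes encode chaperones of the endoplasmic reticulum (ER). The ER stress element (CCAAT, any 9 bases, then CCACG, either strand, so that it holds a CCAAT box) was present in the promoters of 6 of 19 chaperone genes (31.6%) in the RefSeq table and of 17 of all 11230 (0.151%). It is known to bind NF-Y with ATF6. The 250 bases of Hspa5 at chr2:34771840-34772089 (forward strand), Hsp90b1 at chr10:86705445-86705694 (reverse strand) and Dnajc3 at chr14:118937682-118937931 (forward strand) show it in capitals, and are given because these ER chaperones rose together.
Hspa5: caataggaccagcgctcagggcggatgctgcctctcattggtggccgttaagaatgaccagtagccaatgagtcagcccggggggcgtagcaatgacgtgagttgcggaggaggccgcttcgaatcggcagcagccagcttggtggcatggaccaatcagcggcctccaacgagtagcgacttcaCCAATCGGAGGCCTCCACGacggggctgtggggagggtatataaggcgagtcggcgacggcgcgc
Hsp90b1: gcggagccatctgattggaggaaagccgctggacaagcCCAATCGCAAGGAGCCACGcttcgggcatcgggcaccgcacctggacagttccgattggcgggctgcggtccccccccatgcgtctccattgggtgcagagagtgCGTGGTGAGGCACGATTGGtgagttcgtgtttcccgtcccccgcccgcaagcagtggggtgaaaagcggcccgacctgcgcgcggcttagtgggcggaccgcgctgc
Dnajc3: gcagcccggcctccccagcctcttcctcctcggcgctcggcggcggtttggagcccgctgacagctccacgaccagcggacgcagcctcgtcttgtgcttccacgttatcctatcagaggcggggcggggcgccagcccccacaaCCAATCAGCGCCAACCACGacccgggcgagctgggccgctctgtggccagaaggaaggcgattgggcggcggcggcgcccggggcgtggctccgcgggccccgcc
Hspa5, the ER chaperone BiP, was at 308, 355 and 341 CPM at P3 and 615, 472 and 507 CPM at P56 in Tg and rose (0.67 (SE 0.10, adjusted p = 6.04e-05), WT 0.37). Hsp90b1, GRP94, was at 297, 332 and 327 CPM at P3 and 492, 399.6 and 439 CPM at P56 and rose (0.48 (SE 0.084, adjusted p = 2.37e-04)) without a call in WT (-0.14), a difference of 0.62 (SE 0.12, adjusted p = 0.00471). Dnajc3, an inhibitor of the kinase PERK, was at 39.8, 39.5 and 38.3 CPM at P3 and 85.6, 72.2 and 75.5 CPM at P56 and rose by 0.99 (WT 0.42, difference 0.57 (SE 0.12, adjusted p = 0.00664)). Manf, a secreted ER stress protein, rose in Tg (0.72 (SE 0.12, adjusted p = 1.54e-04)) and fell in WT (-0.33). The difference was not called for Hspa5 (95% interval -0.0024 to 0.60).

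Of 22 genes of antigen presentation and the interferon response 20 rose and none fell (median 2.48, WT 3.14). Cd74, the chaperone of class II molecules, was at 3.19, 2.11 and 1.76 CPM at P3 and 290.1, 156 and 114 CPM at P56 and rose by 6.31 (WT 7.12). H2-D1, a class I heavy chain, was at 63.05, 60.2 and 64.7 CPM at P3 and 351, 312 and 268 CPM at P56 and rose by 2.31 (WT 3.13). Of 12 macrophage markers 11 rose and none fell, with a sum of 143 to 166 CPM in Tg P3 and 802 to 832 CPM in Tg P56, and C1qa, a complement gene of resident macrophages, was at 14.1, 14.6 and 13.6 CPM at P3 and 128, 121 and 125 CPM at P56. The part of the macrophage shift in the antigen presentation result was not tested.

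Other cell markers moved with age in Tg as follows. Endothelial markers fell in 9 of 12 cases and rose in 2, against 34.9% and 35.7% of all genes. Their sums were 2027 to 2041 CPM in Tg P3 and 1674 to 1925 CPM in Tg P56 (WT P56 2074 to 2185 CPM). Erythroid markers fell in 8 of 10 cases, with sums of 2510.000000 to 3659 and 667 to 1160.000000 CPM, while 1 known defining gene, Slc4a1, went from 5.59, 8.58 and 8.4005 to 0.645, 0.531 and 0.0871 CPM. Epicardial and mesothelial markers fell in 8 of 9 cases, with sums of 138 to 169.5 and 24.2 to 81.9 CPM and a median of -2.65, which was -4.42 without Tg P56 replicate 1. Acta2, smooth muscle actin, which neonatal heart muscle also holds, was at 1170.000000, 1479.7 and 1219 CPM at P3 and 74.8, 97.5 and 123 CPM at P56 in Tg and 301, 281 and 139.8 CPM in WT P56, a difference of -1.46 (SE 0.36, adjusted p = 0.0178) that was lost without both libraries low in Y-linked transcripts.

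Of 22 ribosomal protein genes 18 fell and 1 rose in Tg, with a median of -0.30 (WT -0.27), and Rpl3 was at 585, 657 and 601 CPM at P3 and 299, 249 and 218 CPM at P56, a change of -1.27 (SE 0.10, adjusted p = 2.54e-07). Its muscle counterpart Rpl3l was at 4.91, 3.58 and 3.94 CPM at P3 and 169, 207 and 228 CPM at P56 and rose by 5.60 (WT 6.19). Among 13 splicing regulators 8 fell and 5 rose, against 34.9% and 35.7% of all genes. Celf1 fell (-0.58, WT -0.66) and Mbnl1 rose (1.25, WT 0.996), a pair with opposite roles in the postnatal splicing switch.

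Clock genes rose in 12 of 16 cases in Tg. Dbp, an output gene of the clock, was at 17.3, 11.5 and 16.7 CPM at P3 and 50.9, 129 and 148 CPM at P56 and Npas2, of its activating limb, at 25.1, 26.96 and 23.3 CPM at P3 and 6.26, 4.34 and 3.22 CPM at P56, with changes of 2.85 (SE 0.34, adjusted p = 9.27e-06) and -2.45 (SE 0.18, adjusted p = 1.16e-07). The labels used here give no hour of sampling. Among 14 immediate early genes, which also respond to tissue handling, 8 rose in Tg, against 35.7% of all genes. The difference was more positive for 4, against 8.42% of all genes. The 4 became 2 without both libraries low in Y-linked transcripts. Atf3, a stress-induced factor, was at 12.4, 11.9 and 19.03 CPM at P3 and 27.1, 19.7 and 38.3 CPM at P56 in Tg and 12.9, 13.3 and 15.4 CPM at P3 and 5.88, 4.47 and 3.703 CPM at P56 in WT, a difference of 2.53 (SE 0.36, adjusted p = 8.56e-04).

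The largest changes with age in Tg included genes near 0 at one of the ages. Acsm5, a medium-chain acyl-CoA synthetase, was at 0 in all Tg P3 libraries and at 6.72, 5.93 and 6.62 CPM at P56, at least 41.0-fold higher against 3 counts per library. Among the deepest falls were Tceal5, from 7.74, 7.53 and 7.67 CPM to 0 in all Tg P56 libraries (at least 28.6-fold lower), and Bex1, from 60.2, 73.99 and 80.01 to 0.184, 0.354 and 0.174 CPM, which fell more in Tg than in WT (difference -2.62 (SE 0.43, adjusted p = 0.001904)). 2210407C18Rik, Klhl34 and H2-Q6 rose from 0.156 CPM or less, and Plppr1 and Nipal4 fell to 0.0921 CPM or less. H2-Q6 has near-identical relatives, so its value is uncertain.

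Some genes had a far more positive change in Tg than in WT. Edn3, a peptide of the endothelin family, was at 0.261, 0.105 and 0.363 CPM at P3 and 141, 71.2 and 79.9 CPM at P56 in Tg and 2.02, 2.19 and 2.602 CPM in WT P56, a difference of 5.73 (SE 0.93, adjusted p = 0.00188). Nos1, neuronal nitric oxide synthase, was at 0.314, 0.263 and 0.622 CPM at P3 and 12.8, 21.2 and 21.2 CPM at P56 in Tg and 0.868, 0.547 and 0.3002 CPM in WT P56 (5.09 (SE 0.63, adjusted p = 3.55e-04)). Lrp8, a lipoprotein receptor, was at 0.889, 1.74 and 2.33 CPM at P3 and 32.8, 11.9 and 15.1 CPM at P56 in Tg and 5.57, 2.33 and 6.496 CPM at P3 and 0.964, 1.09 and 0.801 CPM at P56 in WT, rising in the one (3.58) and falling in the other (-2.32), a difference of 5.90 (SE 0.73, adjusted p = 3.51e-04). Myot, the Z-disc protein myotilin, was at 1.15, 1.26 and 1.19 CPM at P3 and 361, 225 and 276 CPM at P56 in Tg and rose by 7.89 (WT 6.06). Frem1, a basement membrane protein, fell less in Tg, where it was at 13.1, 11.6 and 15.04 CPM at P3 and 5.25, 6.55 and 11.2 CPM at P56, than in WT (-0.78 and -5.61, difference 4.83 (SE 0.47, adjusted p = 1.03e-04)).

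Others had a more negative change in Tg. Abca12, a lipid transporter, was at 1.098, 1.26 and 1.09 CPM at P3 and 1.38, 1.24 and 2.18 CPM at P56 in Tg and 0.724, 0.847 and 0.634 CPM at P3 and 6.27, 8.12 and 7.41 CPM at P56 in WT, with overlapping ages in Tg and a difference of -2.82 (SE 0.35, adjusted p = 3.55e-04). Epn3, an endocytic adaptor, was at 42.1, 38.9 and 35.1 CPM at P3 and 5.62, 13.6 and 17.8 CPM at P56 in Tg and 26.2, 36.05 and 36.02 CPM at P3 and 51.4, 55.4 and 53.3 CPM at P56 in WT: it fell in Tg (-1.64) and rose in WT (0.70), a difference of -2.34 (SE 0.36, adjusted p = 0.00142). Mr1, which presents microbial metabolites to T cells, fell in Tg from 17.2, 14.1 and 20.6 to 3.04, 4.07 and 3.83 CPM (-2.24 (SE 0.17, adjusted p = 1.33e-07)) and was not called in WT (0.067), a difference of -2.31 (SE 0.22, adjusted p = 8.66e-05). Ky, a muscle protein needed for normal muscle growth, fell in Tg (-2.13 (SE 0.48, adjusted p = 0.00166)) and was not called in WT (0.89), a difference of -3.01 (SE 0.64, adjusted p = 0.00837).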

How the data were processed

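Heart RNA of Tg and WT mice at P3 and P56 was sequenced, with 3 libraries in each of 4 groups. Each deposited file holds 1 library, with an expected count for every gene as the authors computed it. The files hold decimals (in 29.3% to 32.8% of genes) and were rounded to whole numbers. Per the submitters' processing notes HISAT2 2.0.4, STAR 2.3.0 and DESeq2 were used and builds mm8 and mm9 named, but their roles, the counting tool and its use of strand are not given in the sources used here. The submitters' texts name a BGISEQ-500 instrument in one place and Illumina in another. How reads of near-identical genes were divided is not recorded. A joined table holds the same values and was not used.

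Groups came from the sample titles. edgeR 4.0.16 (R 4.3.3) fitted 1 quasi-likelihood model with 4 group means to all 12 libraries, giving 8 residual degrees of freedom, after filterByExpr and TMM scaling. Contrasts were P56 against P3 in each genotype and the difference of the 2, with Benjamini-Hochberg adjustment over 14212 genes and a threshold of 0.05. SE is the absolute log2 change divided by the square root of F. CPM are TMM-scaled. A fold against libraries at 0 used a floor of 3 counts per library and is a lower bound for counting error only. Total counts of 11174527 to 17095351 set the precision. Replicates of each group differed by more than sampling noise. The scripts were tested on simulated data.

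The comparison and the gene lists were chosen with earlier results of these data known, so list counts are descriptions. Genes were named by a rule: Dyrk1b, isoform pairs, the 8 highest and 8 lowest Tg changes with a mean of at least 5 CPM in the higher group and groups that do not overlap, the 8 most positive and 8 most negative differences, and per list up to 5 genes with the lowest p for age in Tg and up to 3 for the difference. Chosen after their values were seen, outside the rule, were Aldoc, Ankrd1, Bgn, Cacna1h, Cd36, Cdc20, Cdkn1a, Col3a1, Col4a1, Cs, Dbp, Fbln2, Fmod, Gdf15, Gja1, Hadha, Hmga1, Hsp90b1, Hspa1a, Hspa1b, Hspa5, Hspd1, Idh2, Igf1, Kcnip2, Kcnj2, Kif11, Klf9, Lamb1, Lamb2, Lin28b, Manf, Mfap4, Myl7, Nebl, Nppb, Pdgfra, Peg3, Ppara, Ppargc1a, Ppargc1b, Rpl3l, Rtl1, Slc8a1, Spp1, Tcf21, Thbs1, Thbs2, Timp1 and Top2a. Promoters were read from the RefSeq table (GRCm38.p6), a build other than those the notes name, so its coordinates locate only the printed sequences. Alternatives were RLE scaling, no filter, DESeq2 1.42.0, Tg libraries alone, a replicate block, a term for libraries low in Y-linked transcripts (under 10 CPM), thinned depth, a minimum log2 change of 1, leaving out the 10 genes with most counts, and each library left out in turn. Leaving out both low Y-linked libraries was chosen after seeing the data. Some genes that the rule gives are not reported here.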

Additional observations from a re-analysis of the deposited data

Results flagged for a closer look

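The changes from P3 to P56 differed between the genotypes, by the test of the difference itself in the fit of all 12 libraries, for 1196 genes with a more positive and 913 with a more negative change in Tg. Among the genes named here, the difference was called for those that follow, each given as the log2 change in Tg minus that in WT. No group had enough libraries for a test of single outlying ones.

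Contractile and stress genes had mostly positive differences. The isoform genes stood at 4.14 for Myh7, 3.97 for Acta1, 1.99 for Tnni1, -0.67 for Tnni3 and -0.77 for Ckm. The glucose transporter Slc2a4 stood at -0.48 and the fatty acid carrier Fabp5 at -0.66. Sarcomere genes stood at 2.55 for Xirp2, 2.22 for Ankrd1, 1.83 for Myot, 1.42 for Flnc, 1.19 for Csrp3 and 0.84 for Lmod2. The stress markers Nppb, Nppa and Rcan1 were at 3.48, 2.92 and 2.61, and Atf3 at 2.53. The junction genes Dsp and Pkp2 were at 1.18 and 0.71. The transgene's own gene, Dyrk1b, was at 2.87.

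Channel and calcium genes went both ways. Positive differences were those of Cacna1h (1.08), Ryr2 (0.61) and Cacna2d1 (0.50). Negative ones were those of Kcnip2 (-1.13), Kcnj2 (-1.07), Kcnh2 (-0.82) and Atp2a2 (-0.48).

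Among the named matrix genes these differences were positive apart from Thbs2, at -1.08. The highest were Thbs4 at 5.28, Frem1 at 4.83, Thbs1 at 4.51, Cilp at 4.45 and Fmod at 3.87. Spp1, Postn and Timp1 followed at 3.07, 2.99 and 2.91, and Vcan, Mfap4 and Bgn at 2.49, 1.99 and 1.89. Lower in the order were Fbn2 (1.32), Fbln2 (1.20) and Fn1 (0.73). Collagen and laminin genes ran from Col4a3 (2.56), Loxl3 (2.08), Col4a4 (1.59) and Col1a1 (1.48) to Col4a1 (0.50) and Lamb1 (0.44). The fibroblast marker Pdgfra was at 0.70.

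Signalling genes with positive differences were Ltbp2 (4.19), Ctgf (3.25), Frzb (2.17), Cyr61 (1.83), Tgfb3 (1.45) and Tgfbr1 (1.12). In the IGF axis Igfbp5 was at 1.75 and Igfbp7 at 1.13, whereas Igf2 was at -0.88. Bmp7 was at -1.27 and Amotl2 at -0.89. In the thyroid axis Dio2 was at 3.10 and Hr at 1.06. Chaperones with positive differences were Hspa1a (3.80), Hspa1b (2.32), Hsp90aa1 (1.46), Hspb1 (1.29), Manf (1.05) and Hsph1 (1.01). Hsp90b1, Hspb7 and Dnajc3 were at 0.62, 0.62 and 0.57, and Hspd1 at -0.38.

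Among the named metabolic genes these differences were negative apart from Pfkp, at 1.21. In fatty acid oxidation Hadhb was at -0.90, Acot2 at -0.83, Hadha at -0.79, Etfdh at -0.77 and Acadm at -0.69. In the citric acid cycle Suclg2 and Idh2 were both at -0.74, Ogdh at -0.61 and Cs at -0.54. Respiratory chain genes were Sdhc (-0.81), Ndufs1 (-0.78) and Atp5b (-0.59). Bckdha was at -0.78, Oxct1 at -0.56, Pfkfb1 at -2.10, Ppargc1b at -0.80 and Tfb2m at -0.59.

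Growth genes with negative differences were Rtl1 (-3.21), Ccnd2 (-1.52), Cenpf (-1.34), Pola1 (-1.25) and Cdkn1c (-1.10), and Cenpa was at 0.82. The ribosomal gene Rpl3l was at -0.59 and the ribosome assembly gene Rrp12 at 1.44. Of the genes on the mural cell marker list, Acta2 was at -1.46 and Rgs5 at -0.76. Other genes with far apart changes were Lrp8 (5.90), Edn3 (5.73), Nos1 (5.09) and Klhl34 (3.86) upwards. Downwards they were Ky (-3.01), Abca12 (-2.82), Bex1 (-2.62), Epn3 (-2.34) and Mr1 (-2.31). Not all of these calls hold without single libraries. Among those lost in several such fits were the calls of Rtl1 and Ppargc1b.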

How the results depend on the processing

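The 6 main results are counts and a percentage, which cannot change sign, so the alternatives show only how far they moved. The median change over all genes moved by at most 0.0305 in size (log2). A minimum absolute log2 fold change of 1 left 2229 higher and 2085 lower genes in Tg, a difference more positive for 507 and more negative for 162 genes, and 238 WT changes smaller in Tg. Without both libraries low in Y-linked transcripts, an alternative chosen after seeing the data, the difference was more negative for 586 genes. Over the fits that left out 1 library each, the Tg rises ranged from 4735 to 5183 and the falls from 4593 to 5106. The differences more positive in Tg ranged from 930 to 1195 and those more negative from 589 to 915, lowest without Tg P3 replicate 1. WT changes also called in Tg ranged from 77.842 to 84.131% and those smaller in Tg from 770 to 1074. DESeq2 called 1268 more positive and 1100 more negative differences.

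Replicate numbers are shared by the groups. Same-numbered P3 and P56 Tg libraries did not deviate together (Pearson r of their deviations across genes -0.153, -0.0528 and -0.0237), so the numbers were not taken to pair the hearts. With the number as a replicate block, 4954 genes rose and 4871 fell in Tg, and the difference was more positive for 1027 and more negative for 720 genes. Of the 179 genes named here that were called in Tg, 2 lost the call under the block, and of 109 called differences 4 did. No named gene turned from a call in one direction to a call in the other under any alternative. With 3 libraries a group, genes near 0 CPM at both ages and differences smaller than the spread between libraries were not detectable, and a missing call does not show that the genotypes changed alike.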

Other observations

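Basement membrane genes were all called in Tg, with 6 of 18 higher and 12 lower between P3 and P56. Over all genes 35.7% were higher and 34.9% lower. The difference of the changes was more positive for 10 and more negative for 1, against 8.42% and 6.42% of all genes. The 10 became 6 without WT P56 replicate 3 and 5 without both libraries low in Y-linked transcripts. Col18a1, the source of endostatin, was at 266, 248 and 239 CPM at P3 and 29.2, 25.3 and 35.001 CPM at P56 in Tg and fell (-3.07 (SE 0.14, adjusted p = 2.17e-09), WT -3.50). Lamb2, the laminin beta 2 chain of mature muscle, rose from 196, 176 and 177 to 503, 441 and 513 CPM (1.41 (SE 0.081, adjusted p = 1.43e-08), WT 1.19), and Lamb1, the beta 1 chain, fell (-1.49 (SE 0.083, adjusted p = 1.14e-08), WT -1.93). The ages stood apart for all 3 genes, and the laminin beta chains moved in opposite directions in both genotypes.

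Ribosome biogenesis genes rose in 6 of 21 cases and fell in 7 in Tg, shares near those over all genes (35.7% and 34.9%). Rrp12, a factor of ribosome export, was at 16.8, 16.9 and 16.6 CPM at P3 and 62.99, 51.1 and 56.9 CPM at P56 in Tg, with the ages apart, and at 24.3, 23.3 and 24.6 CPM in WT P56. It rose by 1.76 (WT 0.33), a difference of 1.44 (SE 0.14, adjusted p = 1.12e-04). Npm1, nucleophosmin, fell by 0.84 (WT -1.15).

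Mural cell markers rose in 3 of 12 cases and fell in 6, against 35.7% and 34.9% of all genes. Mcam, an adhesion molecule of vessels, was at 244, 253 and 255 CPM at P3 and 63.9, 57.6 and 57.6 CPM at P56 in Tg and fell by 2.07 (WT -2.09). Rgs5, a marker of pericytes, rose from 244, 213 and 200.5 to 388, 492 and 381 CPM in Tg by less than in WT (0.94 and 1.70, difference -0.76 (SE 0.17, adjusted p = 0.0108)). Neutrophil markers were low throughout, with sums of 18.96 to 20.9 CPM in Tg P3 and 0.266 to 8.29 CPM in Tg P56, and 5 of 6 tested fell, which became 3 without both libraries low in Y-linked transcripts. Skeletal muscle markers other than Ckm were at low levels, and 4 of 5 tested fell, among them Tnnt3 from 2.61, 2.32 and 2.8002 to 0.368, 0.443 and 0.174 CPM.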
